A study of Homo sapiens with 30 samples.

Results

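The regions described here are the 289 TET1 regions that were present in the chromatin immunoprecipitation (ChIP-seq) peak list of cells kept with the auxin indole-3-acetic acid (IAA) and that shared no base with any TET1 region of cells kept without it. They were chosen by the calls in these lists: rows of 1 list with at least 1 bp in common were joined into regions, and each of the 325 TET1 regions with IAA was compared with the 16246 TET1 regions without IAA. The 289 make up 88.9% of the 325, a share set by the rule and by the lengths of the lists, and the other 36 shared at least 1 base with a region called without IAA. By the same rule, 99.8% of the TET2 regions with IAA, 76% of the MBD3 regions with IAA and 14.3% of the CTCF regions with IAA were called with IAA only. All 8 lists together hold 70565 regions.

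The cells were HEK293T, an established human embryonic kidney line, with an edited CTCF gene. In both conditions they had been transfected with 2 plasmids, pcDNA3.1-ScFv-miniIAA7-mEGFP and pcDNA3.1-AtAFB2-mCherry, which supply the auxin-inducible degradation system. They then stayed in medium with 0.5 mM IAA for 72 h or in medium without it, and the treatment label of the latter names DMSO. Each of 4 antibodies (TET1, TET2, MBD3 and CTCF) was used on 3 samples per condition, and each deposited list pools the 3, so neither the number nor the strength of the regions has a replicate error. Whether the edited cells are a single clone, and whether samples come from separate cultures, is not given in the labels. For the targeted protein, the CTCF list held 42925 regions without IAA and 63 with IAA, and CTCF was not checked sample by sample. The read depth behind the lists and the control each was called against are not given in the sources used here. Positions are given in hg19, as the lists have them.

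TET1 is a dioxygenase that oxidises methylated cytosine, a step toward removal of the methyl mark, and its long form carries a CXXC zinc finger that binds unmethylated CpG-rich DNA. TET2 catalyses the same reaction and lacks that finger. MBD3 belongs to NuRD, a chromatin complex that moves nucleosomes and removes histone acetyl groups, and CTCF is the zinc-finger protein at loop anchors and insulators.

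The TET1 regions called with IAA only were mostly weak, narrow and single. Their fold enrichment, the authors' value for a peak over its control, ran from 1.40 to 11.8 with a median of 4.25 (quartiles 2.90 and 4.99). Their −log10 q ran from 1.31 to 273 with a median of 2.86 (quartiles 1.76 and 6.13). The lowest value of any row in the TET1 list with IAA was 1.31. The median width was 191 bp (quartiles 165 and 247), near the 196.5 bp of the other 36 and the 197 bp of TET1 regions without IAA. In the TET1 list with IAA the other 36 regions had a median fold of 4.23 and a median −log10 q of 3.88, so both kinds covered much the same range. The rule used these calls, and the values are given as a description. Many values recurred exactly: 97 of the 289, or 33.6%, shared both fold and −log10 q with another of the 289, and the commonest pair of values, a fold of 4.25 with a −log10 q of 1.33, stood at 16 regions. The recurring values had folds of 3.21 to 6.67 and a −log10 q of at most 4.99. A −log10 q of at least 5 was reached by 78 regions and a fold of at least 5 by 69.

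The highest −log10 q values mostly stood at low folds. A −log10 q of at least 10 was reached by 46 of the 289, or 15.9% (Wilson 95% interval 12.2% to 20.6%). Of these 46, 38 had a fold under 3. The class was not particular to the 289. Over all 325 regions the share was 16.6%, and among the other 36 it was 8, or 22.2% (11.7% to 38.1%), all 8 with a fold under 3. At 42395986 to 42396183 on chromosome 10, the top −log10 q of 273 came with a fold of 2.11, rank 283 of 325. At 33887627 to 33887789 on chromosome 16, the top fold of 11.8 came with a −log10 q of 16.1. Wilson intervals here and below cover counting error over regions, which are positions in pooled lists and not replicates, and no p-value is given.

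**Figure D1:**
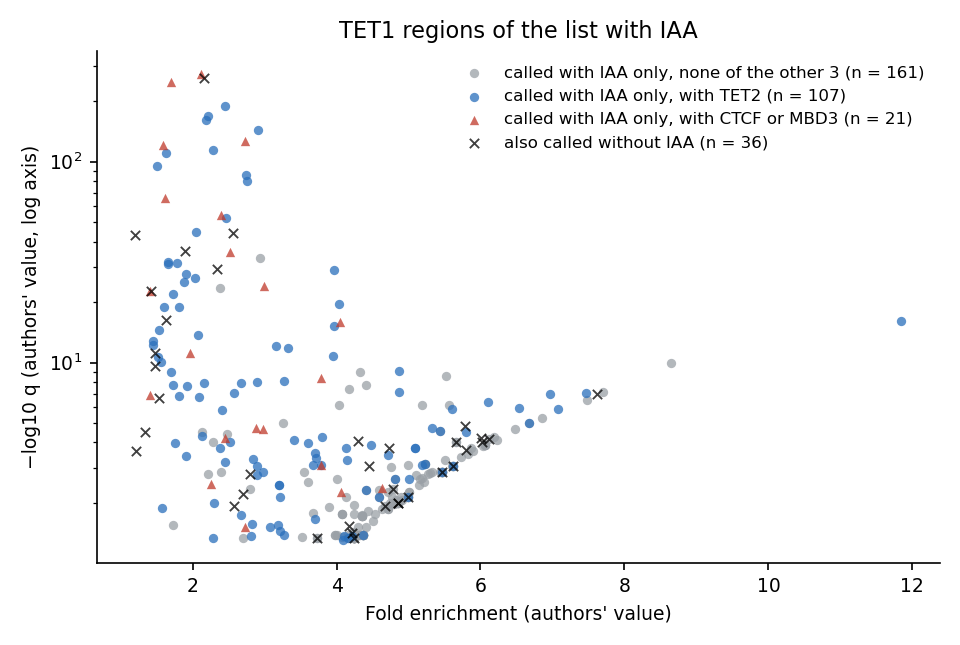
Fold enrichment (x axis) against −log10 q (y axis, log scale) of the 325 TET1 regions with IAA, both the authors' values. Circles are regions called with IAA only, blue where TET2 alone of the other 3 antibodies was called with IAA (107) and grey where none was (161), red triangles are those with CTCF or MBD3 (21) and crosses the 36 also called without IAA. Points with a −log10 q above 10 sit mostly under 3-fold and are mostly blue or red, while most grey points lie along the lower edge.

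TET2 was the other protein most often called at these regions with IAA. Of the 289, 125 shared a base with a TET2 region with IAA, or 43.3% (37.7% to 49.0%), against 38.8% of all 325 TET1 regions with IAA, to which the 289 contribute most. Among the other 36 it was 1, or 2.78% (0.492% to 14.2%), a difference of 40.5 percentage points (Newcombe 95% interval 27.8 to 46.7). A TET2 region without IAA lay at 2 of the 289, or 0.692% (0.190% to 2.49%), and at 15 of the 36, or 41.7% (27.1% to 57.8%). The rule itself bears on both contrasts, because it puts the 36 on TET1 regions without IAA and keeps the 289 off them. Of the 16246 TET1 regions without IAA, 452 shared a base with a TET2 region without IAA. Of the 3022 TET2 regions with IAA, 21 shared a base with a TET1 region without IAA. The TET2 list with IAA holds 3022 regions and that without IAA 1326. Cut to the 1326 regions with the highest −log10 q, the TET2 list with IAA met 107 of the 289, or 37.0%, below the interval of 37.7% to 49.0%. The cut itself favours the shared sites, which stood high in that list by −log10 q, so it does not settle the part played by list length. The shared sites were 122 TET2 regions, 4.04% of the TET2 list with IAA, and all 122 were TET2 regions called with IAA only.

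TET1 and TET2 summits at the shared sites lay close together. The median distance was 26 bp (quartiles 8 and 98), with 59.2% of the 125 within 50 bp, and a median of 203 bp was common to both regions. In the TET2 list the shared sites stood somewhat below the middle by fold and high by −log10 q. Their median TET2 fold was 4.44 (range 1.72 to 16.8) against 4.79 over the whole list, and their median rank by fold was 1977 of 3022. Their median −log10 q was 10.2 against 3.04 for the TET2 regions at none of the 289. A −log10 q of at least 10 was reached by 62 of the 122, or 50.8% (42.1% to 59.5%), and by 9.21% (8.21% to 10.3%) of the others. In the TET1 list, the 125 regions with TET2 had a median fold of 2.91 and a median −log10 q of 5.88, and the 164 without had 4.47 and 2.14. The share with TET2 depended on how TET1 strength was ranked. With the 289 ranked by −log10 q and cut into 4 parts, TET2 was called in the top part at 61 of 73, or 83.6% (73.4% to 90.3%), and in the lowest part at 14 of 72, or 19.4% (12.0% to 30.0%). Ranked by fold, the top part had TET2 at 18 of 73, or 24.7% (16.2% to 35.6%), and the lowest part at 61 of 72, or 84.7% (74.7% to 91.2%). At regions whose exact values recurred TET2 was called at 17 of 97, or 17.5%. The share was 78.2% among regions with −log10 q of at least 5 in every list, and 26.1% among those with a TET1 fold of at least 5.

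MBD3 and CTCF were rare at these regions with IAA, and mostly came with TET2, at 17 of 20 and 6 of 6. MBD3 was called at 20 of the 289, or 6.92% (4.52% to 10.4%), against 9.54% of all 325 and 30.6% (18.0% to 46.9%) of the other 36, a difference of −23.6 points (−40.1 to −10.6). CTCF was called at 6, or 2.08% (0.955% to 4.45%), against 4.62% of all 325 and 25% (13.8% to 41.1%) of the other 36, a difference of −22.9 points (−39.0 to −11.4). The 36 lie where TET1 had been called without IAA, and 30 of them at former CTCF regions. From the side of the other lists, the 20 MBD3 regions are 40% (27.6% to 53.8%) of the 50 MBD3 regions with IAA and 20 of the 38 MBD3 regions called with IAA only. The 6 CTCF regions are among the 9 called with IAA only. Without IAA, MBD3 had been called at 0 of the 289, where the Wilson interval reaches 1.31%, and at 21 of the 36. The rule itself bears on this split, because 3774 of the 16246 TET1 regions without IAA shared a base with MBD3 without IAA. All of the other 3 antibodies met at 5 of the 289, MBD3 and TET2 at 12, CTCF and TET2 at 1, MBD3 alone at 3, TET2 alone at 107, and none at 161, or 55.7%.

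**Figure D2:**
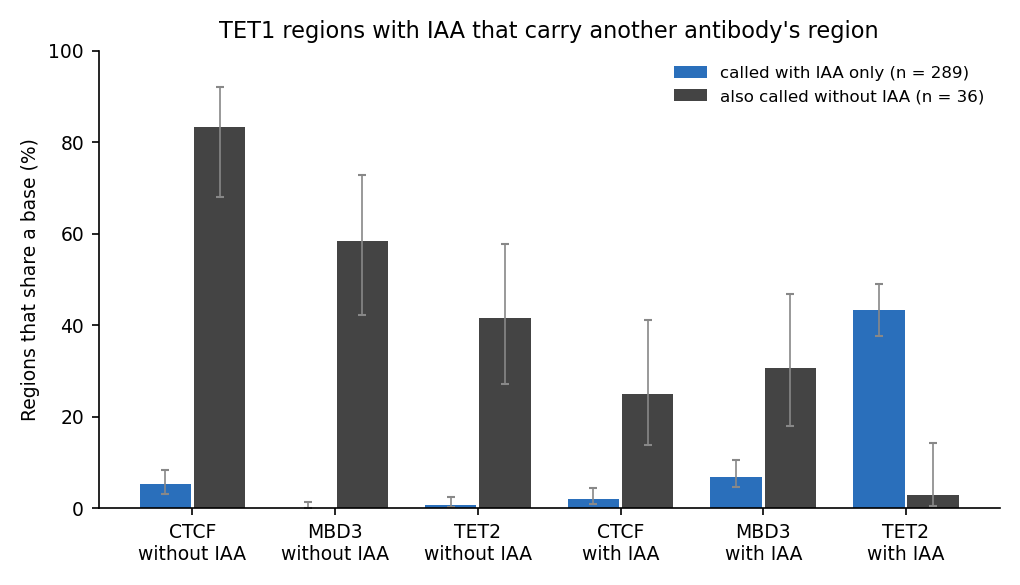
Share of TET1 regions with IAA (y axis, percent) that share a base with a region of each other list (x axis), for the 289 called with IAA only (blue) and the 36 also called without IAA (dark). Bars start at 0 and lines are Wilson 95% intervals. TET2 with IAA is the one list met more often by the 289, at 43.3% against 2.78%. The rule keeps the 289 off TET1 regions without IAA, where all 36 lie, and so bears on these contrasts.

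The regions with CTCF lay in few places and were of low fold. One at 61975486 to 61975942 on chromosome 7 had a TET1 fold of 2.98 and a CTCF fold of 3.46. On chromosome 16, 46432459 to 46432834 had a TET1 fold of 2.40 and a CTCF fold of 2.05, and 46424630 to 46425207 had 1.96 and 1.56. Chromosome 10 had 42395986 to 42396183, at 2.11 and 1.77, and 42596949 to 42597159, at 1.70 and 1.61. The last was 55625937 to 55626833 on chromosome 19, at 1.40 and 1.28. Whether reads at this place came from the genome or from sequence shared with the transfected plasmids or the editing construct was not tested. TET2 was called at all 6 and MBD3 at all but 46424630 to 46425207. In the CTCF list with IAA these 6 regions ranked between 44 and 61 of 63 by fold, and by −log10 q between 2 and 62.

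On chromosomes 1 to 22 and X, the 5 MBD3 sites of highest TET1 fold included 3 singles away from these places. At 126096100 to 126096276 on chromosome 11 TET1 stood at 4.63-fold and MBD3 at 6.12-fold, and TET2 was not called. At 64603009 to 64603264 on chromosome 2 TET1, MBD3 and TET2 stood at 4.07-, 4.18- and 7.13-fold, each within its own list. At 109815825 to 109816102 on chromosome 2 they stood at 3.79-, 3.69- and 4.91-fold. The remaining 2 were 49151178 to 49151810 on chromosome 4 (TET1 4.04-fold, MBD3 2.75-fold) and 157731609 to 157731988 on chromosome 6 (TET1 2.99-fold, MBD3 1.88-fold), both with TET2. The region on chromosome 4 lies inside the edge of the long CTCF-free stretch of its chromosome, as defined next, and that on chromosome 6 is 1 of a pair.

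Regions with TET2 lay near chromosome ends and long CTCF-free stretches more often than regions without TET2. Of the 289, 278 lay on chromosomes 1 to 22 and X. Since no hg19 annotation was used, position was read from the lists: the highest position listed for a chromosome stood for its end, and the longest stretch between neighbouring CTCF regions without IAA (or before the first) was found on each chromosome. These stretches were 3097993 to 21100896 bp long. Within 5 Mb of an end lay 80 of 278 regions, or 28.8% (23.8% to 34.4%). For TET1 without IAA this was 9.27% (8.83% to 9.73%), a difference of 19.5 points (14.5 to 25.1), and the end segments hold 7.58% of the listed length. In the stretches or within 1 Mb of them lay 44 of 278, or 15.8% (12.0% to 20.6%), against 1.09% of TET1 regions without IAA, a difference of 14.7 points (10.9 to 19.5), and these segments hold 7.56% of the listed length. How much of the length of these segments can hold a called region was not examined, so their shares of the listed length are not expected shares. The stretches are by definition poor in CTCF without IAA, and most TET1 regions without IAA lay at CTCF. Counting 1 region per group of neighbours within 10 kb, the share at the stretches was 6.84%, since 31 of the 44 lay on chromosomes 10 and 16.

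In the same TET1 list, the other regions, of which 34 lay on these chromosomes, were near an end in 5 cases, or 14.7% (6.45% to 30.1%), a difference of 14.1 points whose interval (−2.14 to 24.0) includes 0. They were at the stretches in 9 cases, or 26.5% (14.6% to 43.1%), a difference of −10.6 points (−27.7 to 2.14), so within this list no higher share at the stretches was seen for the regions called with IAA only. Against TET2 regions with IAA that met none of the 289, the share near ends was 4.66 points lower, with an interval (−9.97 to 1.18) that includes 0, and the share at the stretches was 8.97 points higher (5.02 to 13.8). Of the regions with TET2, 38.8% (30.4% to 47.9%) lay near an end, against 21.6% (16.0% to 28.6%) of those without, a difference of 17.2 points (6.30 to 27.9). At the stretches these shares were 31.9% (24.1% to 40.8%) and 4.32% (2.11% to 8.65%), a difference of 27.6 points (18.7 to 36.8). Seen the other way, TET2 was called at 37 of the 44 regions at the stretches, at 45 of the 80 near ends and at 34 of the 154 elsewhere, or 22.1%. Of the 44, 20 lay within 46389575 to 46435498 on chromosome 16, and TET2 was called at all 20. On chromosome 10, groups of 8 and 3 regions at the stretch had TET2 at each region. The differences above count such neighbours as separate regions. Strength followed position as well. At the stretches the median TET1 fold was 2.15 and the median −log10 q 20.4, near ends 4.20 and 3.30, and elsewhere 4.38 and 2.14. Of the 46 regions with −log10 q of at least 10, 33 lay at the stretches, and of the 69 with a fold of at least 5, 0 did. Low folds at the stretches were not particular to the 289. Among the other regions of this list, the 9 at the stretches had folds of 1.20 to 2.34 and −log10 q of 4.52 to 260. The source of the reads at the stretches was not tested.

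**Figure D3:**
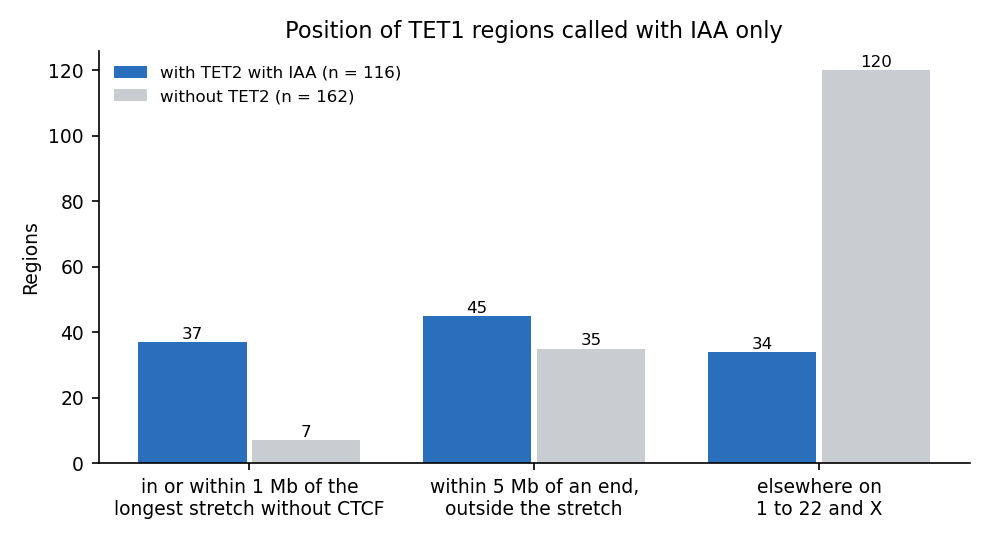
Number of TET1 regions called with IAA only (y axis) by place on chromosomes 1 to 22 and X, blue with TET2 with IAA (116) and grey without (162), with the count over each bar. TET2 was called at 37 of 44 at the stretches and at 34 of 154 elsewhere.

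The regions were unevenly spread over the chromosomes. Chromosome 16 held 29, which is 32.1 per 100 Mb, and 20 of the 29 lay within 46389575 to 46435498. The 29 were 10.0% of the 289, against 3.01% of TET1 regions without IAA and 6.12% of TET2 regions with IAA. Chromosomes 1 and 2 held 26 each and chromosome 10 held 24, which is 17.7 per 100 Mb and second by density among chromosomes 1 to 22 and X. By contrast, chromosome 3 held 2, or 1.01 per 100 Mb. Joined at 10 kb, the regions of chromosome 16 formed 11 groups and those of chromosome 10 formed 15, against 24 each on chromosomes 1 and 2. Of the 29 on chromosome 16, 24 carried TET2. Of the 26 on chromosome 1, 6 did, and of the 12 on chromosome X, 1.

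**Figure D4:**
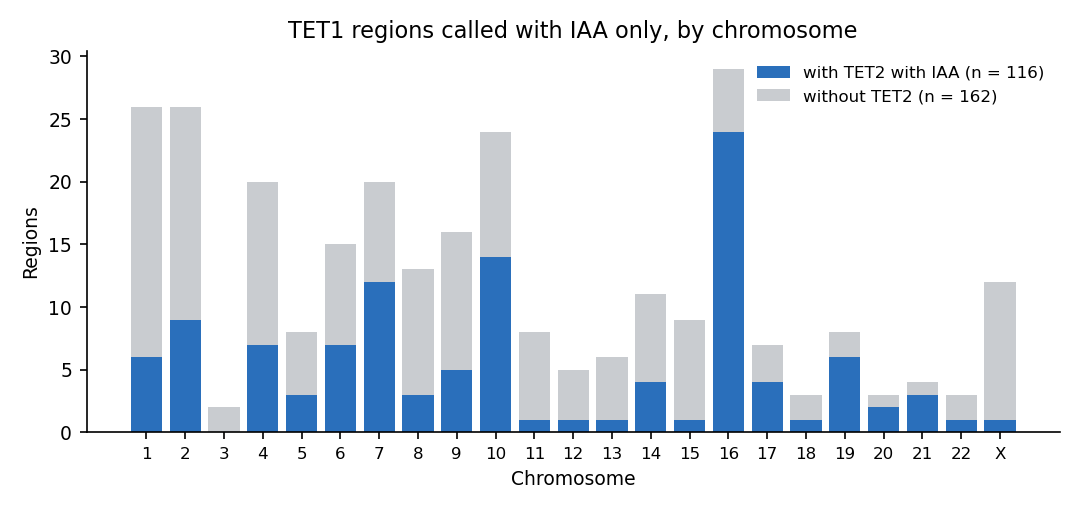
Number of TET1 regions called with IAA only (y axis) on each of chromosomes 1 to 22 and X (x axis), blue with TET2 with IAA (116) and grey without (162). Chromosome 16 is highest with 29, of which 24 carried TET2, and chromosome 3 lowest with 2. Of the 29, 20 lay within 1 span of 45924 bp.

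Clustering was more frequent among the regions with TET2. Another of the 289 lay within 10 kb of 69 regions, or 23.9% (19.3% to 29.1%). The same share was 25% among the other 36 and 24.7% in the much longer TET1 list without IAA. Of the 125 with TET2, 63 had another of the 289 within 10 kb, or 50.4% (41.8% to 59.0%). Of the 164 without, 6 did, or 3.66% (1.69% to 7.75%), a difference of 46.7 points (37.2 to 55.6). Joined at 10 kb, the 289 formed 240 groups, of which 220 were single, 12 were pairs and 8 held 3 or more. Taking 1 region per group, TET2 was called at 79 of 240, or 32.9%, CTCF at 1, or 0.417%, and MBD3 at 10, or 4.17%. Neighbouring regions may share their source, and the intervals above do not allow for that.

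The 3 largest groups lay just inside the stretches of chromosomes 16 and 10. The largest, at 46389575 to 46407035 on chromosome 16, held 13 regions in 17461 bp, with TET1 folds of 1.41 to 2.28 and −log10 q of 6.89 to 114. TET2 was called at all 13 and MBD3 at 1. The next, at 42378321 to 42396971 on chromosome 10, held 8 regions with folds of 1.52 to 2.75 and −log10 q of 1.73 to 273. TET2 was called at all 8, MBD3 at 2 and CTCF at 1. The last of the 3, at 46420355 to 46435498 on chromosome 16, held 7 regions with folds of 1.70 to 2.46 and −log10 q of 8.99 to 54.4. TET2 was called at all 7, CTCF at 2 and MBD3 at 1. In none of these 3 spans did any list without IAA hold a region, and in the TET2 list with IAA they held 22, 20 and 15 regions.

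Of the smaller groups, 4 on numbered chromosomes also held no region of a list without IAA. At 42596949 to 42599847 on chromosome 10, 3 regions with TET2 had −log10 q of 121 to 251 at folds of 1.59 to 2.91, MBD3 at 2 of them and CTCF at 1. Groups of 3, each region with TET2, also lay at 157939673 to 157941298 on chromosome 7 and 2583695 to 2586901 on chromosome 1, both within 5 Mb of an end. At 105696809 to 105700296 on chromosome 14, also near an end, TET2 was called at 3 of 4. The remaining group, on the unplaced contig gl000220 at 137377 to 156040, held 4 regions with TET2 at 3, and 1 CTCF region without IAA lay in its span. Of the 12 pairs, 9 had TET2 at both regions, 2 at 1 region and 1 at neither.

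The strongest single regions by fold were scattered, and TET2 was called at 5 of the first 10 on chromosomes 1 to 22 and X. The first, on chromosome 16 (11.8-fold), also stood high in the TET2 list, at 16.8-fold with summits 5 bp apart. Next came 7174949 to 7175287 and 147551695 to 147551883 on chromosome 1, with 8.65- and 7.71-fold and no other antibody. At 240628764 to 240629016 on chromosome 2 TET1 stood at 7.48-fold, also alone. With TET2 were 47510830 to 47511032 on chromosome 21 (TET1 7.46-fold, TET2 15.8-fold) and 131372075 to 131372410 on chromosome 12 (7.07- and 7.96-fold), each under 5 Mb from an end. Alone were 15586226 to 15586378 on chromosome 8 (6.86-fold) and 63154032 to 63154209 on chromosome 1 (6.67-fold). The list ends with 667061 to 667418 on chromosome 18 (6.67- and 5.07-fold) and 547199 to 547506 on chromosome 1 (6.53- and 10.8-fold), both with TET2 and near an end. CTCF had not been called without IAA at any of the 10, and 1 of them, on chromosome 18, lay under 1 kb from a former CTCF summit (830 bp).

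The 5 widest regions all carried TET2. The widest neighbours lay at the place on chromosome 19 where the source of the reads was not tested, at 55627309 to 55628214 (906 bp, TET1 1.50-fold, −log10 q 94.8) and 55625937 to 55626833 (897 bp, 1.40-fold, 22.8). They were followed by 49151178 to 49151810 and 182162307 to 182162890 on chromosome 4, of 633 and 584 bp, and 46424630 to 46425207 on chromosome 16, of 578 bp.

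Few of the regions lay at former CTCF regions. The count was 15 of 289, or 5.19% (3.17% to 8.39%), against 13.8% of all 325. The rule itself lowers this count, because it removes every region on a TET1 region without IAA, 91.1% of which were at CTCF. CTCF regions without IAA cover 0.397% of the listed length. TET2 with IAA was called at 0 of the 15, and MBD3 and CTCF with IAA at none. By the split above, former CTCF was met by 9.15% (5.62% to 14.5%) of the regions without TET2 and by 0 of the 125 with it, where the Wilson interval reaches 2.98%, a difference of −9.15 points (−14.5 to −4.53).

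The former CTCF regions under these 15 were mostly in the lower part of their list by fold. Their CTCF fold without IAA had a median of 5.93 (2.08 to 24.4), against 13.6 over all 42925, and 4 of the 15 lay above that. Their best rank was 10557 by fold and 2238 by −log10 q. The TET1 regions on them had a median fold of 4.75 and a median −log10 q of 2.62. The highest TET1 fold of these 15 was 6.12, at 71055742 to 71055972 on chromosome 15, over a CTCF region of 4.45-fold without IAA. On chromosome 6, 106783138 to 106783337 stood at 6.07-fold over a CTCF region of 15.7-fold. On chromosome 1, 67395616 to 67395770 stood at 6.03-fold over one of 5.61-fold. The next 2 were 2629403 to 2629722 on chromosome 12, at 5.56-fold over one of 2.36-fold, and on chromosome 16 the region from 4475519 to 4475678, at 5.51-fold over one of 4.63-fold. TET2 had been called without IAA at those on chromosomes 15 and 1, the only 2 of the 289 with such a region. The TET1 summit lay a median of 101 bp from the CTCF summit (quartiles 61.5 and 134), and 3 of 15 within 50 bp. The other TET1 regions with IAA lay a median of 38 bp from a former CTCF summit, over the 34 on chromosomes with one.

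Most regions lay over 10 kb from any former CTCF or TET1 summit. From a CTCF summit without IAA they were a median of 24650 bp away (quartiles 9017 and 56635) over 287 regions, the other 2 being on a contig without one. It was 36853 bp with TET2 and 19476 bp without TET2. Within 200 bp of a former CTCF summit lay 15 of 287, within 1 kb 30, or 10.5% (7.42% to 14.5%), within 10 kb 77, and within 100 kb 244. TET2 regions with IAA that met none of the 289 had a median distance of 20577 bp, with 3.80% (3.16% to 4.56%) within 1 kb. Former TET1 summits were more distant, with a median of 62207 bp (quartiles 20276 and 161913), in a list 16246 long against 42925. Within 1 kb of one lay 7 of 287, or 2.44% (1.19% to 4.95%), none of them with TET2.

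**Figure D5:**
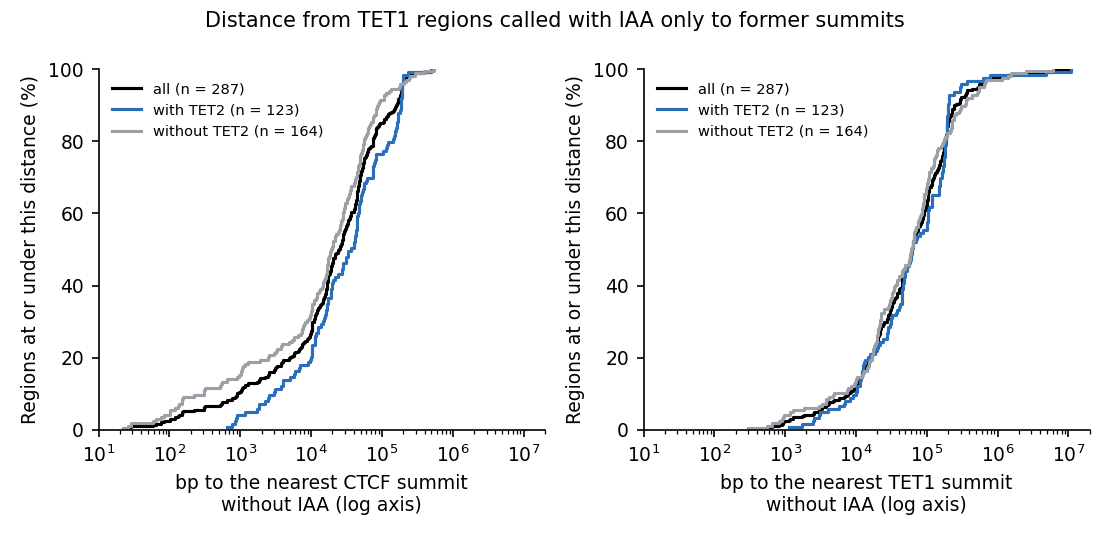
Share of the TET1 regions called with IAA only (y axis, percent) at or under each distance (x axis, bp, log scale) from the nearest CTCF summit without IAA (left) and TET1 summit without IAA (right). Lines are the 287 on chromosomes with such a summit (black), the 123 with TET2 (blue) and the 164 without (grey). On the left the blue line starts at 656 bp and stays right of the grey line over most of the range, and on the right the lines cross, with medians of 62224 and 61455 bp.

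At the edge of the rule, the nearest of the 289 to a TET1 region without IAA lay 97 bp from it, at 109289402 to 109289566 on chromosome 1 (4.35-fold), on a former CTCF region. Next came 10380781 to 10380935 on chromosome 19 (5.89-fold), at 364 bp, and 31320560 to 31320732 on chromosome 10 (4.41-fold), at 410 bp. Just outside, the regions with the shortest overlap were 249200444 to 249200598 on chromosome 1 (4.85-fold), with 17 bp in common, 2301758 to 2301952 on chromosome 16 (5.66-fold), with 34 bp, and 55038299 to 55038481 on chromosome 17 (4.18-fold), with 125 bp. The median gap of the 287 on chromosomes with such a region was 61972 bp, and 7 had a gap within 1 kb.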

How the data were processed

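The 8 deposited peak lists, 1 per antibody and condition, were each called by the authors on 3 pooled samples, per the labels. The build is hg19, and the tools are MACS2 2.1.2, Bowtie2 2.3.4, bedtools 2.25.0, FastQC 0.11.7 and SAMtools 1.9, per the submitters' processing notes, which give no roles. The fold enrichment, a ratio from the authors' peak caller, and −log10 of the q-value were used as deposited, within 1 list only. Deposited summit offsets gave the summits. The highest q was 0.0497. Depth is unknown and sets how many weak peaks are listed.

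Rows with 1 bp in common were joined into regions, each with the top −log10 q of its rows, the summit of that row, and the top fold. Sharing meant 1 bp in common. Shares have Wilson 95% and differences Newcombe 95% intervals (Python 3.11.15, scipy 1.17.1), checked on simulated regions. With 1 pooled list per condition no test was made. Regions on chromosomes 1 to 22 and X were named by a fixed rule: the 10 of highest fold, the 3 highest with TET2, all with CTCF, the 5 highest with MBD3 or at former CTCF, the 5 widest, the 3 largest groups and the 3 on each side of the rule's edge. The region of highest −log10 q, the smaller groups, the pairs and the contigs were picked after their values were seen. The regions, rules and alternatives were chosen with earlier results of these data known. Sequences and gene names are not given, since the reference tables used GRCh38.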

Additional observations from a re-analysis of the deposited data

How the results depend on the processing

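Of 90 values over 10 results and 10 alternatives, 63 stayed within the 95% interval of the main value or, for the count, within 1.5 times it. With −log10 q of at least 5 in every list there were 78 regions, with a median fold of 2.49 and a median of 40557 bp to a former CTCF summit. Of these 0.0% were at former CTCF regions, 78.2% with TET2, 11.5% with MBD3, 56.4% within 10 kb of another and 49.3% at the stretches. With a fold of at least 5 there were 69, with a median fold of 5.60 and a median of 17323 bp. Of these 26.1% had TET2, 0.0% CTCF, 0.0% MBD3, 35.3% lay near an end, 0.0% within 10 kb of another and 0.0% at the stretches. With 50% of both regions in common, 2.69% were at former CTCF regions and 30.3% with TET2. With 1 region per group at 10 kb, 32.9% had TET2, 0.417% CTCF, 4.17% MBD3 and 6.84% lay at the stretches, and the median fold was 4.37. With single rows 32.9% lay within 10 kb of another. Without the 5 regions of all 4 antibodies, 0.352% had CTCF. With the TET2 list cut to the length of that without IAA, chosen after the data were seen, 37.0% had TET2. The cause of these moves was not tested, beyond the filters' own choice of regions. Summits within 200 bp, chromosomes 1 to 22 and X alone, and a distance over 1 kb from TET1 without IAA moved none of the 10. The shares near ends and at the stretches count only chromosomes 1 to 22 and X in any case, so that alternative could not move them. The distance over 1 kb left 282 of the 289 regions, so it could move little. No paired analysis was possible because each list pools its 3 samples, and for the same reason no replicate could be left out. Unknown depth limits every count, and absence from a list is not absence of binding.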

Other observations

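On chromosomes 1 to 22 and X, outside the ends and the stretches, 6 regions called with IAA only had a −log10 q of at least 10, and TET2 with IAA was called at all 6. A pair on chromosome 6 lay 166 bp apart, at 74229993 to 74230511 and 74230678 to 74230921, with TET1 folds of 1.63 and 1.62, −log10 q of 111 and 66.3, and TET2 folds of 2.36 and 1.91, and MBD3 was called at 1 of them. No list without IAA held a region within 10 kb of this pair. The same was true of the pair near the end of chromosome 19, at 55625937 to 55626833 and 55627309 to 55628214, which lay 475 bp apart with TET1 folds of 1.40 and 1.50. Whether reads at these 2 pairs came from the genome or from sequence shared with the transfected plasmids or the editing construct was not tested. A second pair on chromosome 6, 157731609 to 157731988 and 157735189 to 157735349, stood at 2.99- and 3.96-fold, with −log10 q of 24.1 and 28.9.

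The 11 regions not on chromosomes 1 to 22 or X ranged from 1.57- to 6.96-fold, and 9 of them carried TET2 with IAA. The unplaced contig gl000220 held 8, at 1.57- to 3.16-fold and 6 with TET2. Contig gl000216 held 2, at 3.78-fold with MBD3 and 6.96-fold without, both with TET2. Reads listed on chromosome Y gave 1. Whether the reads at these 11 came from the places they are listed at was not tested.

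On chromosome 2, 92300812 to 92300967 and 92308480 to 92308632 were the exception among the 46 regions with a −log10 q of at least 10: they had no TET2 with IAA, at 2.94- and 2.38-fold and −log10 q of 33.3 and 23.5, and 10 regions of the lists without IAA lay within 10 kb of the pair.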
